A study of Mus musculus with 4 samples.

Results

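The neurotrophins and their receptors were described here as a set of 8 genes: Bdnf, Ntf3, Ntf5, Ntrk2, Ntrk3, Ngfr, Sort1 and Vgf. They were found by gene symbol in the array's value table, and 7 of the 8 had a row under that symbol, among 19572 transcript clusters with a symbol. Each of the 7 had 1 row. Ntf3, which encodes neurotrophin 3, was not analysed here. The samples were brain cortex RNA of male SAMR1 mice, the normally ageing control line of the senescence-accelerated mouse strains. All mice were housed singly for 4 months from an age of 7 months. At 11 months of age treatment began: oral TCQA (tricaffeoylquinic acid, a polyphenol found in plants) at 5 mg/kg daily for 1 month in one group, and MilliQ water in the control group. Each group had 2 Clariom S arrays, called TCQA 1, TCQA 2, water 1 and water 2 below. The labels do not say whether an array held 1 mouse or a pool, so the p-values reflect the spread among these arrays alone, part of which may be technical, and precision is limited by having 4 arrays.

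Neurotrophins are secreted growth factors that support the survival of neurons and adjust the strength of their synapses. They are made as precursors, and the cleaved forms act through Trk receptor tyrosine kinases, while the uncleaved precursors bind the p75 receptor together with sortilin. In cortex, BDNF is made mainly by excitatory neurons in response to activity, and its receptor TrkB is carried by neurons and, in a truncated form, by astrocytes.

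Of the 7 measured genes, none differed between TCQA and water at an unadjusted p under 0.05 in limma, where 7.37% of all transcript clusters did, and none differed by over 2-fold. The gene nearest to a difference was Vgf, a secreted neuropeptide precursor that BDNF induces, which was 1.45-fold higher after TCQA. Bdnf itself differed more between arrays of a group than between the groups. The receptor transcripts Ntrk2, Ntrk3 and Sort1 were bright on every array, with differences between the groups of -0.13 to 0.00070 on the log2 scale. Adjusted p-values of the 7 genes from limma lay between 0.683 and 1.00, and the adjusted threshold of 0.05 was passed by 0 of all 19572 transcript clusters, of which 1443 had an unadjusted p under 0.05.

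Levels are log2 signals after SST-RMA normalisation, the array software's variant of robust multichip averaging. Array medians lay between 6.98 and 7.04, and the 5222 negative control probe sets had a median of 6.98 and a 95th percentile of 11.06 over the 4 arrays. The median standard error (SE) of a log2 difference was 0.22, and with it a 1.43-fold difference has an unadjusted p of 0.05. Markers of cortex were bright, with 7 of 9 measured above the 95th percentile of the negative controls, Camk2a at 18.42 to 18.88 and Slc17a7 at 15.98 to 16.34. The arrays also differed in markers of neighbouring tissue. The mean level of 14 striatal markers was 12.31 in water 1 and 11.01 to 11.51 in the other arrays, and that of 9 cortical markers was 12.91 in water 1 and 13.68 to 13.73 in the others. By group means 0 striatal markers were higher and 14 lower after TCQA, and 8 cortical markers were higher and 1 lower. Of both lists 0 had an unadjusted p under 0.05 in limma, and 50.5% of all transcript clusters had a higher mean after TCQA. The mean of 10 olfactory bulb markers was 7.60 in TCQA 2 and 5.68 to 6.16 in the others, and 6 of the 10 lay below the negative control median. Other lists separated the groups. The mean of 13 choroid plexus markers was 7.08 and 6.46 in TCQA 1 and TCQA 2, and 8.33 and 7.78 in water 1 and water 2. Of the 13, 7 lay below the negative control median, and 9 were lower and 0 higher at an unadjusted p under 0.05 in limma. Of all transcript clusters 3.89% were lower and 3.48% higher at that p. The mean of 16 endothelial and mural markers was 8.56 and 8.44 in TCQA and 8.20 and 8.24 in water, with 4 of the 16 higher and 1 lower at that p. Of 12 thalamic markers 8 were lower and 4 higher after TCQA, and at an unadjusted p under 0.05 in limma 4 were lower and 0 higher. Their mean, however, overlapped between the groups (7.93 and 8.64 in TCQA, 9.03 and 8.40 in water). In such bulk tissue, fewer cells of a type and less RNA per cell cannot be told apart.

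**Figure D1:**
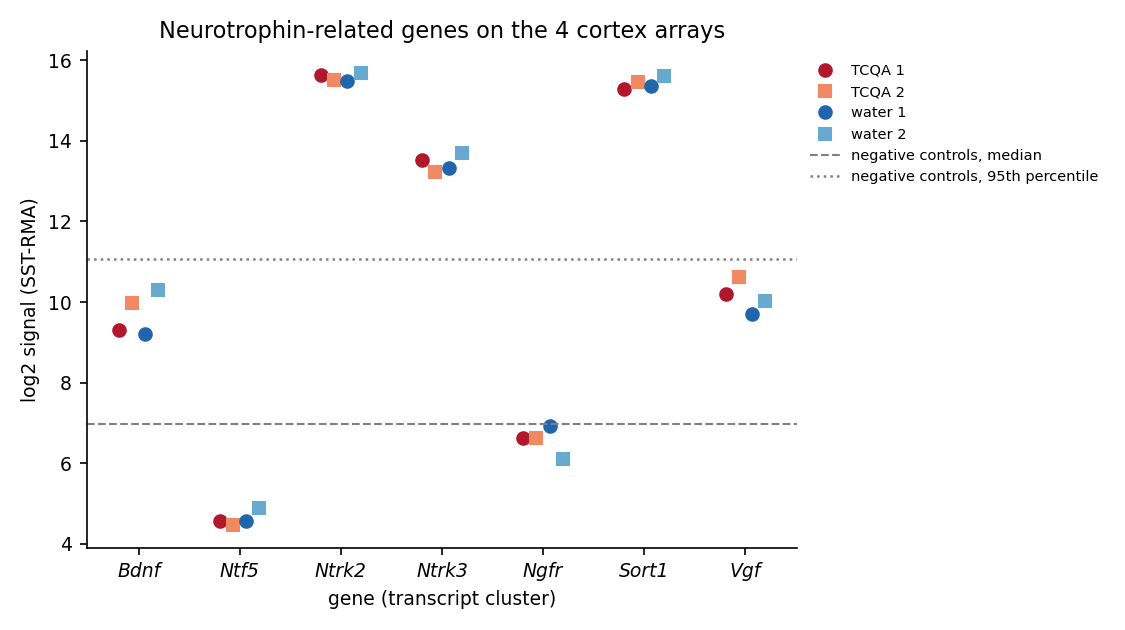
Log2 signal of the 7 genes (horizontal axis) on each of the 4 arrays (points), with the median (6.98) and the 95th percentile (11.06) of the negative control probe sets as lines. Ntrk2, Ntrk3 and Sort1 lie above both lines, Bdnf and Vgf between them, and Ntf5 and Ngfr below the median on all arrays.

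The measured ligands of the set were Bdnf and Ntf5. Bdnf (transcript cluster TC0200001624.mm.2, chromosome 2) encodes brain-derived neurotrophic factor. Its level was 9.31 and 9.98 in TCQA 1 and TCQA 2, and 9.21 and 10.29 in water 1 and water 2. Each group thus held a lower and a higher array, and the water arrays enclosed both TCQA arrays. The group means were 9.64 ± 0.47 (SD, n = 2) after TCQA and 9.75 ± 0.76 (SD, n = 2) after water. The log2 difference of TCQA minus water was -0.11 (SE 0.40, 95% interval -1.07 to 0.85), and a 2-fold lower level lies within that interval. The pooled SD within groups, 0.64, was larger than that of 98.8% of the 6612 transcript clusters in the same range of signal, between the median and the 95th percentile of the negative controls, where the median SD was 0.19. Without TCQA 1 the difference was 0.23, without TCQA 2 it was -0.44, without water 1 it was -0.65 and without water 2 it was 0.43.

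Bdnf is transcribed from several alternative start sites, each joined to the same coding exon, and the platform annotation assigns 11 RefSeq transcripts to the 1 transcript cluster. The value is therefore a level over all of them, and the use of single start sites was not measured. RefSeq (GRCm38.p6) gives 7 Bdnf start-site windows in the promoter table. The 250 bases before each start were searched on both strands for the cAMP response element (CRE) palindrome TGACGTCA, for its 5-letter core TGACG or CGTCA (which overlaps the palindrome) and for the E-box CACGTG. The palindrome was in 0 of the 7 windows and in 1.55% of all 32851 promoter windows of that length, the E-box in 0 of 7 and 6.02%, and the CRE core in 1 of 7 and 17.8%. The window with the core is shown because it is the single one of the 7 that holds any of these letters, at 35 bases before the start, in capitals, on the plus strand at chr2:109692186-109692435.

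Bdnf, window 3: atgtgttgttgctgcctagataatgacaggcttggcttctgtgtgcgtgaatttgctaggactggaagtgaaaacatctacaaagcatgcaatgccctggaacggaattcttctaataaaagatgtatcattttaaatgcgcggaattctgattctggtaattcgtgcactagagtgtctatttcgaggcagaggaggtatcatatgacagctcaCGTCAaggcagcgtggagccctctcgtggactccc

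A match describes these letters and says nothing of binding in these samples. The table also held a window for Ntrk2 and for Ngfr, and neither contained the 3 motifs.

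Ntf5 (TC0700000844.mm.2, chromosome 7) encodes neurotrophin 4, the other ligand of TrkB. It lay at 4.56 and 4.46 on the TCQA arrays and 4.56 and 4.89 on the water arrays, below the negative control median on every array. Both TCQA arrays were below both water arrays, although TCQA 1 and water 1 were nearly level. As both groups are in the range of background signal, no fold is given. The difference was -0.22 (SE 0.21; limma, adjusted p = 0.805).

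Both Trk receptors of the set were above the 95th percentile of the negative controls on all arrays. Ntrk2 (TC1300000718.mm.2, chromosome 13), which encodes TrkB, the receptor of BDNF and neurotrophin 4, lay at 15.63 and 15.52 on the TCQA arrays and 15.48 and 15.68 on the water arrays. The groups overlapped, and the means were 15.58 ± 0.078 and 15.58 ± 0.14 (SD, n = 2 each). The difference of 0.00070 (SE 0.19) had a 95% interval of -0.47 to 0.47, and its sign turned under renormalisation (-0.044 after quantile normalisation, -0.017 after median centring). Ntrk2 had 1 value per array, so the full-length and truncated forms of the receptor were not separated. The mean level of 13 astrocyte markers lay between 12.22 and 12.31 on the 4 arrays, with Aldoc and Slc1a2 the brightest.

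Ntrk3 (TC0700003539.mm.2, chromosome 7) encodes TrkC, the receptor of neurotrophin 3. It lay at 13.54 and 13.23 on the TCQA arrays and 13.33 and 13.69 on the water arrays. The lowest array was TCQA 2 and the highest water 2, and the groups overlapped. The difference was -0.13 (SE 0.23, 95% interval -0.68 to 0.42), and it was 0.026 without TCQA 2, 0.054 without water 2, -0.28 without TCQA 1 and -0.31 without water 1. The within-group SD of Ntrk3, 0.24, exceeded that of 84.1% of the 3222 transcript clusters above the 95th percentile of the negative controls, against 40.8% for Ntrk2.

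Ngfr (TC1100003593.mm.2, chromosome 11) encodes the p75 neurotrophin receptor, which in the adult forebrain is known chiefly from basal forebrain cholinergic neurons. It lay at 6.63 and 6.63 on the TCQA arrays and 6.93 and 6.09 on the water arrays. Both TCQA arrays lay between the water arrays, and all 4 values were below the negative control median, so that no fold is given. The difference was 0.12 (SE 0.30; limma, adjusted p = 0.943), 0.53 without water 1 and -0.30 without water 2. Water 1, the array with the highest Ngfr signal, also had the highest mean of 7 cholinergic neuron markers, 6.53 against 5.36 to 5.67 in the others. These markers were listed for the basal forebrain, and their region of origin was not tested. Water 1 is the array meant below. That array had the highest mean of striatal markers as well (12.31). The order did not hold for the other arrays, as water 2, with the lowest Ngfr signal, had a cholinergic marker mean of 5.48 and TCQA 2 one of 5.36. Of the cholinergic markers 4 lay below the negative control median, and Lhx8 and Isl1 were the brightest. Their part in the Ngfr signal was not tested.

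Sort1 (TC0300001137.mm.2, chromosome 3) encodes sortilin, the sorting receptor that binds proneurotrophins with p75 and guides BDNF into the regulated secretory pathway. It lay at 15.28 and 15.45 on the TCQA arrays and 15.36 and 15.61 on the water arrays. The groups overlapped, with TCQA 1 lowest and water 2 highest. The difference was -0.12 (SE 0.20, 95% interval -0.61 to 0.36), and 0.0011 without water 2, -0.21 without TCQA 2, -0.25 without water 1 and -0.038 without TCQA 1.

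Of 6 other genes listed for the family 4 were measured, all of them related sorting receptors. Sorcs2, which pairs with p75 in binding proBDNF, lay at 10.01 and 9.87 on the TCQA arrays and 9.66 and 9.73 on the water arrays, a difference of 0.24 (SE 0.19). Sorcs1 lay at 9.75 and 9.52 on the TCQA arrays and 10.08 and 9.91 on the water arrays, a difference of -0.36 (SE 0.20). For both genes the groups did not overlap, in opposite directions, and neither reached an unadjusted p under 0.05 in limma. Sorcs3 differed by 0.022 and Sorl1, the sorting receptor of the amyloid precursor, by -0.093, and the groups of each overlapped. Groups did not overlap for 39.2% of all transcript clusters, and for 2 of the 7 genes of the neurotrophin set, Vgf and Ntf5.

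Vgf (TC0500001618.mm.2, chromosome 5) encodes a precursor of secreted peptides that is packed into dense core vesicles and is known as a transcript induced by BDNF and by neuronal activity. It lay at 10.19 and 10.62 on the TCQA arrays and 9.71 and 10.02 on the water arrays. Both TCQA arrays were above both water arrays, and the gap between TCQA 1 and water 2 was smaller than the gap between the arrays of either group. The means were 10.41 ± 0.31 after TCQA and 9.87 ± 0.22 after water (SD, n = 2 each). The difference was 0.54 (SE 0.24, 95% interval -0.029 to 1.11), with an adjusted p of 0.683 by limma and an unadjusted p of 0.0595. Without TCQA 1, which leaves TCQA 2 alone in its group, it was 0.76. It was 0.70 without water 2, 0.38 without water 1 and 0.32 without TCQA 2. TCQA 2, the highest array, also had the most olfactory bulb marker signal. Water 1, the lowest, had the most striatal and least cortical marker signal. Some marker lists separated the groups without overlap, as did Vgf and 39.2% of all transcript clusters. The means of the other marker lists, astrocyte, striatal and cortical markers among them, overlapped. Choroid plexus markers had lower means in TCQA (6.46 and 7.08, against 7.78 and 8.33 in water). Endothelial and mural markers had higher means in TCQA (8.44 and 8.56, against 8.20 and 8.24). Excitatory neuron markers were higher in TCQA too (11.48 and 11.56, against 11.04 and 11.46), and myelin markers lower (11.16 and 11.19, against 11.21 and 11.75). In the excitatory and myelin lists water 2 lay close to the TCQA arrays. The part of these markers in the Vgf difference was not tested.

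**Figure D2:**
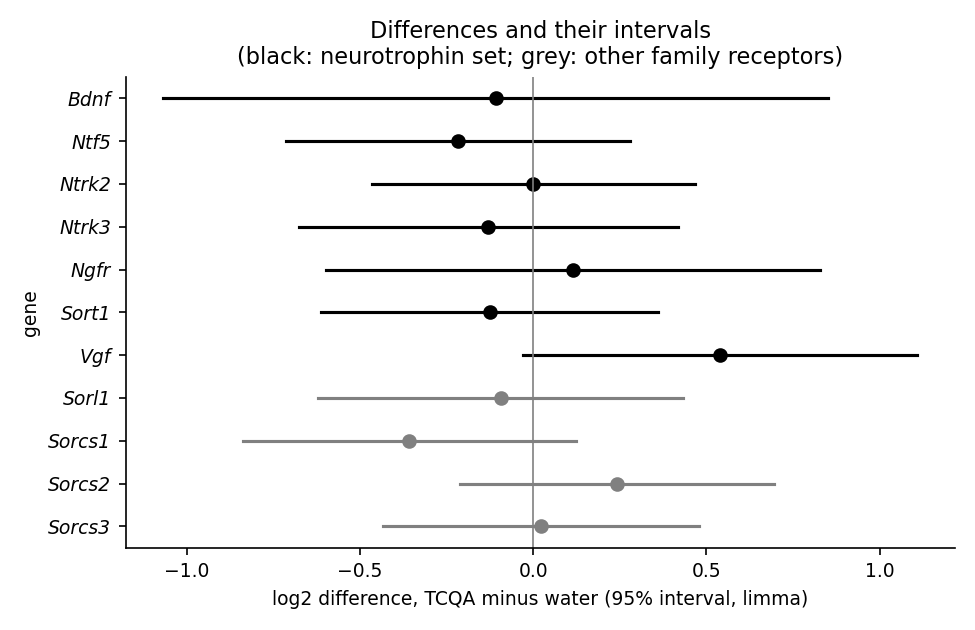
Log2 difference of TCQA minus water (points) with its 95% interval from limma (lines) for the 7 genes in black and 4 related sorting receptors in grey. All intervals include 0, the Vgf interval runs from -0.029 to 1.11 and the Bdnf interval, the widest, from -1.07 to 0.85.

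Across the arrays, Bdnf, Sort1 and Vgf were each higher in TCQA 2 than in TCQA 1 and in water 2 than in water 1, as were 25.1% of all transcript clusters. Ntf5, Ntrk2 and Ntrk3 were each higher in TCQA 1 than in TCQA 2 and in water 2 than in water 1. Water 2 had the highest level of Bdnf, Ntf5, Ntrk2, Ntrk3 and Sort1, and the lowest of Ngfr. Of the 7 genes 3 had a higher mean after TCQA, as did 50.5% of all transcript clusters, and 4 a lower one, with a median difference of -0.11 beside a median of 0.0028 over all transcript clusters.

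**Figure D3:**
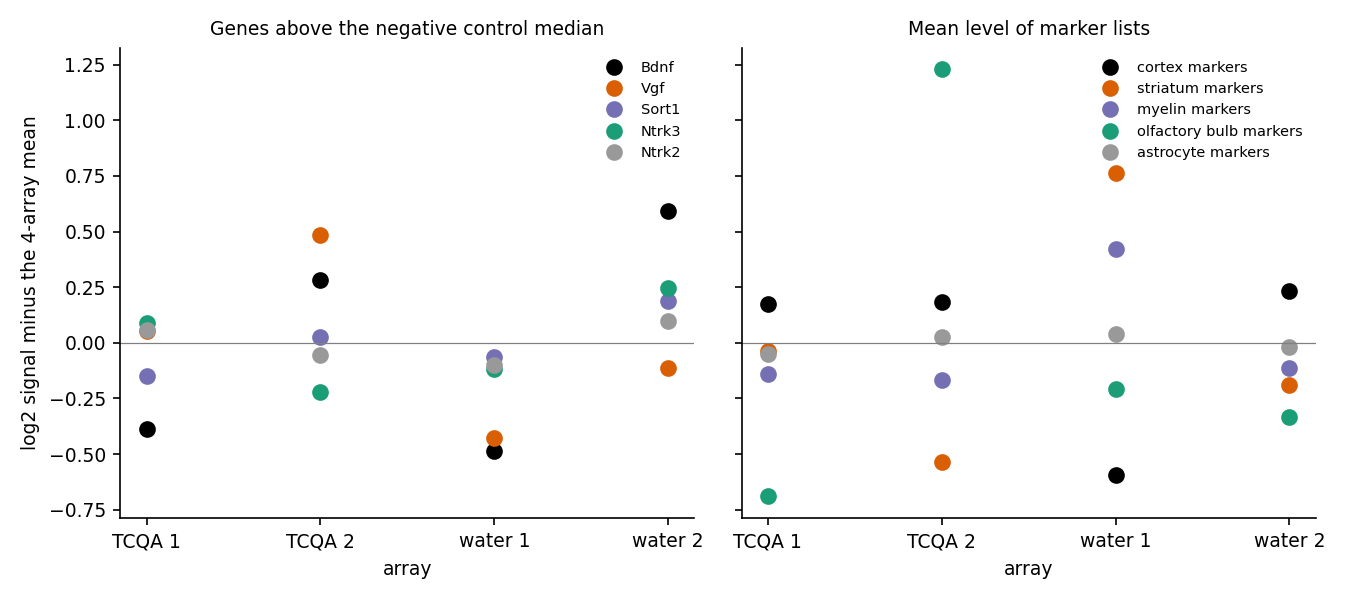
Left, log2 signal minus the 4-array mean for the 5 genes above the negative control median. Right, the same for the mean level of 5 marker lists. Each point is an array. Bdnf was lowest in water 1 (9.21) and highest in water 2 (10.29), striatal markers were highest in water 1 (12.31) and olfactory bulb markers in TCQA 2 (7.60).

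The genes most like Bdnf and Vgf over the 4 arrays, the 2 genes of the set with the widest range, were taken as those with the smallest root mean square difference of mean-centred log2 signals, among 9802 genes brighter than the negative control median. For Bdnf these were Rnd1 (difference 0.073), Zfp251 (0.078), E130114P18Rik (0.10) and Usp1 (0.12). Rnd1 lay at 8.84 and 9.33 on the TCQA arrays and 8.59 and 9.66 on the water arrays, again with a higher and a lower array in each group. For Vgf they were Apcdd1 (0.014), Nmd3 (0.022), Mob4 (0.023) and Ctdspl2 (0.028). Apcdd1, a Wnt inhibitor, lay at 8.70 and 9.10 on the TCQA arrays and 8.20 and 8.53 on the water arrays. Likeness over 4 arrays describes these arrays and is no measure of a shared role.

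Enzymes and inhibitors of proneurotrophin processing were measured for 15 of 18 listed genes. Of them 2 had an unadjusted p under 0.05, both higher after TCQA (3.48% of all transcript clusters were higher at that p), and 0 were lower, with a median difference of -0.033. The genes named from this and the following lists were picked by their p. Such a choice favours groups that do not overlap, as for 39.2% of all transcript clusters. Serpini1 encodes neuroserpin, the neuronal inhibitor of tissue plasminogen activator, the protease that activates plasmin, which cleaves proBDNF. It lay at 14.44 and 14.93 on the TCQA arrays and 13.60 and 14.14 on the water arrays. Both TCQA arrays were above both water arrays, a difference of 0.82 (SE 0.27; limma, adjusted p = 0.673). Leaving out an array gave 0.55 to 1.09, and the unadjusted call was lost in a test without the empirical Bayes step. Mmp3, a matrix metalloprotease, was the other gene, at 3.71 to 4.39 on the 4 arrays and so below the negative control median. Its difference of 0.55 became 0.45 to 0.65 with an array left out, and its call was lost with a prior that follows the signal. The proprotein convertases Pcsk7 and Pcsk6 differed by 0.41 and -0.36, each with an unadjusted p above 0.05, and Pcsk7 stood at 0.24 without TCQA 1 and Pcsk6 at -0.16 without water 1.

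Vgf is stored in dense core vesicles, of whose components and cargoes 20 of 21 listed genes were measured. Of these 13 were higher and 7 lower after TCQA, with a median of 0.18, and 1 was higher and 0 lower at an unadjusted p under 0.05, which is 5.00% of the list beside 7.37% of all transcript clusters. That gene, Pcsk1n, encodes proSAAS, a granin-like inhibitor of the prohormone convertase PC1/3. It lay at 11.24 and 10.74 on the TCQA arrays and 9.88 and 9.85 on the water arrays. The gap between the groups was larger than the gap within either, a difference of 1.13 (SE 0.23), or 2.18-fold, with an unadjusted p of 0.00234 and an adjusted p of 0.642 by limma. It met the study's criteria, an unadjusted p under 0.05 with over 2-fold, as did 0.664% of all transcript clusters. Leaving out an array gave 0.87 to 1.38, and 0.87, without TCQA 1, was below 2-fold. Sv2a, a vesicle glycoprotein, differed by 0.41, Ptprn, a granule membrane phosphatase homologue, by 0.31 and Scg5, the chaperone 7B2 of the convertase PC2, by 0.28, with unadjusted p-values above 0.05. The list median was 0.011 without water 1 and 0.042 without TCQA 2.

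Downstream of the Trk receptors, 32 of 34 listed adaptors and kinases were measured. They had a median of -0.022, with 14 higher and 18 lower, and 1 was higher and 0 lower at an unadjusted p under 0.05, or 3.12% of the list beside 7.37% of all. Mapk7 encodes ERK5, a kinase that carries neurotrophin signals to the nucleus. It lay at 9.22 and 9.27 on the TCQA arrays and 8.80 and 8.28 on the water arrays, a difference of 0.70 (SE 0.23; limma, adjusted p = 0.673). Leaving out TCQA 1 gave 0.73, TCQA 2 0.67, water 1 0.96 and water 2 0.44. The call was lost in a test without the empirical Bayes step. Rapgef1, a guanine nucleotide exchange factor bound by Crk adaptors, differed by -0.43, and the regulatory subunits of phosphatidylinositol 3-kinase, Pik3r2 and Pik3r1, by 0.37 and 0.36, with unadjusted p-values above 0.05.

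Partners and effectors of p75 were measured for 16 of 20 listed genes, with a median of -0.017, 8 higher and 8 lower. At an unadjusted p under 0.05, 0 were higher and 1 was lower (3.89% of all transcript clusters were lower at that p). Maged1, or NRAGE, an adaptor that binds the intracellular part of p75, lay at 13.68 and 13.79 on the TCQA arrays and 14.33 and 14.22 on the water arrays. The groups did not overlap, with a difference of -0.54 (SE 0.19; limma, adjusted p = 0.673), and leaving out an array gave -0.60 to -0.48. Omg, a myelin glycoprotein that binds the Nogo receptor complex in which p75 takes part, differed by 0.41, Prdm4, a zinc finger partner of p75, by -0.48 and Rtn4r, the Nogo receptor, by 0.35, all with unadjusted p-values above 0.05. Rtn4r stood at -0.032 without water 1 and Prdm4 at -0.22.

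Regulators of Bdnf transcription were measured for 23 of 25 listed genes, with 15 higher, 8 lower and a median of 0.062. Crtc1, the CREB coactivator that senses activity, was the 1 gene with an unadjusted p under 0.05, or 4.35% of the list beside 7.37% of all. It lay at 13.63 and 13.52 on the TCQA arrays and 13.17 and 13.08 on the water arrays, a difference of 0.45 (SE 0.19; limma, adjusted p = 0.673). Leaving out an array gave 0.40 to 0.51. The call was lost after quantile normalisation, after median centring and under a prior fitted over every probe set or robustly. Srf, a transcription factor of activity-induced genes, differed by -0.52, Usf2, an E-box factor, by -0.41 and Rela, a subunit of NF-kB, by 0.33, with unadjusted p-values above 0.05. Srf and Usf2 were under 0.05 with a prior that follows the signal, after quantile normalisation and with either filter on dim signals. Usf2 was also under it in a test without the empirical Bayes step, and Srf stood at -0.75 without TCQA 1 and at -0.29 without TCQA 2.

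Genes induced by activity or by BDNF, the class to which Bdnf and Vgf belong, were measured for 29 of 30 listed genes. They had a median of 0.091, with 19 higher and 10 lower, and 1 was higher and 0 lower at an unadjusted p under 0.05, or 3.45% of the list beside 7.37% of all. Nr4a2, an orphan nuclear receptor, lay at 11.45 and 11.42 on the TCQA arrays and 10.58 and 11.03 on the water arrays, a difference of 0.63 (SE 0.22; limma, adjusted p = 0.673). Leaving out an array gave 0.40 to 0.86, and the call was lost in a test without the empirical Bayes step. Its relative Nr4a3 differed in the other direction, by -0.48, with both TCQA arrays (11.90 and 12.33) below both water arrays (12.49 and 12.70). Inhba, which encodes an activin subunit, differed by 0.76 and Fosb, an AP-1 subunit, by 0.60, none of the 3 with an unadjusted p under 0.05. Inhba was 8.61 in TCQA 2 and 7.16 to 7.54 in the other arrays, and Fosb 8.92 in TCQA 2 and 7.72 to 7.95 in the others. Without TCQA 2 the differences were 0.22 for Inhba and 0.12 for Fosb. Without TCQA 1, which leaves TCQA 2 alone in its group, they were 1.29 and 1.09.

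**Figure D4:**
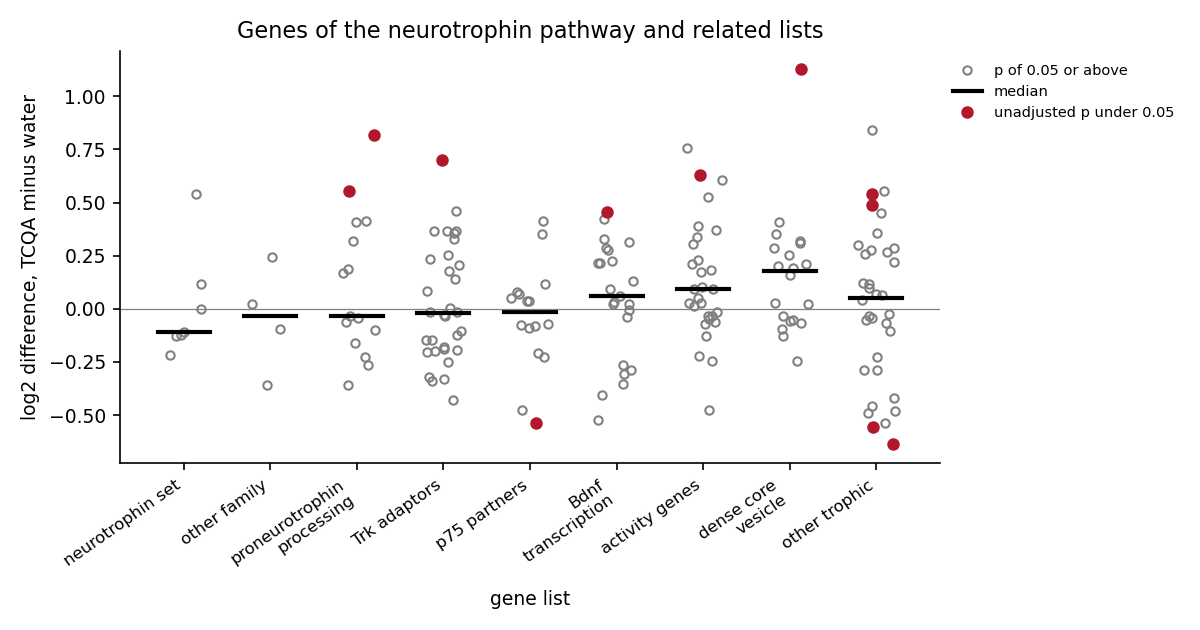
Log2 difference of TCQA minus water for each measured gene (points) of 9 lists, with the median of each list (bars). Filled points have an unadjusted p under 0.05 in limma. The list medians lie between -0.11 (neurotrophin set) and 0.18 (dense core vesicle), and Pcsk1n stands highest at 1.13.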

How the data were processed

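The 4 samples of cortex RNA were hybridised to Clariom S mouse arrays from 100 ng of RNA each, per the labels' design text. For each transcript cluster the authors deposited a log2 signal, obtained by SST-RMA with version 4.0.2 of the Transcriptome Analysis Console, per the labels' design text. RMA and limma are also named in the submitters' processing notes. Such values carry no depth per array. No genome build of the array annotation is stated in those texts. Detection calls of the authors' software were not used.

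Symbols came from the platform annotation. Gene identifiers of the 7 measured genes matched RefSeq on GRCm38.p6 with the same symbol. The highest-mean row stood for a symbol. All 19572 rows with a symbol were fitted with limma 3.58.1 in R 4.3.3 (lmFit and eBayes, group means, no block), 2-sided, with Benjamini-Hochberg adjustment over all of them, and checked on simulated data. The study's criteria were an unadjusted p under 0.05 and over 2-fold. Of 373 listed symbols 344 were measured. Besides the set itself, the 4 listed genes with the smallest p of each pathway list, the 2 brightest of a marker list and the 4 genes most like Bdnf and Vgf were named. Arrays left out, priors, weights, renormalisation, filters and a replicate block were tried. The genes and lists were chosen with earlier results of these data known. Figures used matplotlib 3.10.9.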

Additional observations from a re-analysis of the deposited data

How the results depend on the processing

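None of the 7 genes passed limma's adjusted threshold under any alternative tried, where their adjusted p-values lay at 0.513 or above. Over all transcript clusters, the count past the study's criteria, 130, was 55 without the empirical Bayes step, 44 in the upper 50% of signal and 56 among those reaching the negative control median in the brighter group, where fewer were tested, and 218 to 428 with an array left out. The count with an unadjusted p under 0.05, 1443, was 898 and 942 under the filters. The count after adjustment was 0, and 0 to 2 with an array left out (2 without TCQA 1). With an array left out the log2 differences ranged from -0.65 to 0.43 for Bdnf, -0.098 to 0.10 for Ntrk2, -0.31 to 0.054 for Ntrk3, -0.30 to 0.53 for Ngfr, -0.25 to 0.0011 for Sort1, 0.32 to 0.76 for Vgf, -0.30 to 0.11 for Sorl1, -0.058 to 0.10 for Sorcs3 and -0.032 to 0.73 for Rtn4r, and from -0.38 to -0.052 for Ntf5. Ntrk2 was -0.044 after quantile normalisation and -0.017 after median centring, and Sorcs3 was -0.040 after quantile normalisation. The cause was not tested. Vgf, at 0.54, had an unadjusted p of 0.0307 with a prior that follows the signal, 0.0402 and 0.0416 under the filters (limma). List medians with an array left out ranged from -0.17 to 0.11 for the other family genes, -0.090 to 0.13 for proneurotrophin processing, -0.083 to 0.035 for Trk adaptors, -0.067 to 0.087 for p75 partners, 0.017 to 0.16 for Bdnf transcription, 0.021 to 0.19 for activity genes, 0.011 to 0.25 for dense core vesicles and -0.0089 to 0.031 for other trophic factors. The processing median was 0.077 under both filters. Replicate numbers were only shared: the differences of replicate 1 minus replicate 2 in TCQA and in water correlated with r = -0.0032 across genes. With the replicate block 1497 transcript clusters had an unadjusted p under 0.05, and Vgf, at 0.54, had an unadjusted p of 0.0382 (limma), as Inhba had one of 0.0262, while Crtc1 and Il6st no longer reached it (p of 0.0660 and 0.0531, limma). A prior that follows the signal also brought Rapgef1, Pik3r1, Omg, Nr4a3, Sv2a and Ptprn under an unadjusted p of 0.05. Omg was under it with either filter and without the empirical Bayes step too, and Nr4a3 after quantile normalisation. Ntf5 and Ngfr are limited by signal below the negative control median.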

Other observations

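Other trophic factors and their receptors, outside the neurotrophin family, were measured for 34 of 38 listed genes, with 18 higher and 16 lower after TCQA and a median log2 difference of 0.052. At an unadjusted p under 0.05 by limma 2 were higher and 2 lower, or 11.8% of the list beside 7.37% of all transcript clusters, and 0 passed after adjustment over all transcript clusters. Fgfr3, the fibroblast growth factor receptor known from astrocytes, lay at 12.19 and 12.48 on the TCQA arrays and 11.83 and 11.76 on the water arrays, a difference of 0.54. Il6st, or gp130, the shared receptor subunit of ciliary neurotrophic factor and related cytokines, lay at 10.95 and 11.10 on the TCQA arrays and 10.52 and 10.54 on the water arrays, a difference of 0.49. Fgf1, a fibroblast growth factor of neurons, lay at 10.19 and 10.05 on the TCQA arrays and 10.73 and 10.63 on the water arrays, a difference of -0.56. Lif, a cytokine that signals through gp130, was the other gene, with all 4 levels (4.05 to 4.92) below the negative control median. The groups did not overlap for any of these 4 genes, as for 39.2% of all transcript clusters. The 4 were picked by their p, which favours groups that do not overlap. Leaving out an array gave 0.39 to 0.69 for Fgfr3 and 0.42 to 0.57 for Il6st. For Fgf1 it gave -0.63 to -0.49 and for Lif -0.80 to -0.48. Fgfr3 and Lif lost their unadjusted calls in a test without the empirical Bayes step, and Il6st after quantile normalisation.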
